A study of Mus musculus with 51 samples.

Results

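Bikunin and 4 heavy chains, all secreted by the liver, form the inter-alpha inhibitor family, and their genes Ambp, Itih1, Itih2, Itih3 and Itih4 were followed here by name through 6 groups of mouse RNA-seq libraries. All 5 were found among the 33773 genes of the deposited expression matrix, and all 5 passed the filter on low values. The groups came from a study of FoxA1, FoxA2 and FoxA3, related forkhead transcription factors of hepatocytes, and of the nuclear receptor HNF4a. Triple null hepatocytes (4 libraries) came from mice with floxed FoxA1 and FoxA2 alleles (L/L) and a germline FoxA3-/- genotype, injected at 8 weeks of age with AAV8 that carries Cre under the hepatocyte-specific Tbg promoter. FoxA3 null hepatocytes (4 libraries) carried the same alleles and received AAV encoding GFP, per the design text, so these controls lack FoxA3 too. The FoxA3 null mice were also injected at 8 weeks of age. FoxA1/A2 lox hepatocytes (3 libraries) are labelled as floxed without Cre, and FoxA1/A2 Cre alfp hepatocytes (4 libraries) as deleted for both genes with FoxA3 left in place; the labels give neither the age of these mice nor the time of deletion. HNF4a control (2 libraries) and HNF4a null (4 libraries, depleted in the adult) are labelled as liver. Because the Tbg promoter is specific to hepatocytes, any other liver cells in the triple null libraries still carry intact FoxA1 and FoxA2. Nothing in the labels says whether replicates are separate animals, so p-values measure only the spread between these libraries.

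Ambp encodes a precursor that is cut into alpha-1-microglobulin, a heme-binding lipocalin, and bikunin, a Kunitz-type serine protease inhibitor. Bikunin carries a chondroitin sulfate chain, and in the secretory pathway of hepatocytes heavy chains encoded by Itih1, Itih2 and Itih3 are joined to that chain, which gives inter-alpha inhibitor and pre-alpha inhibitor of plasma. TSG-6, encoded by Tnfaip6, moves heavy chains from bikunin to hyaluronan in extracellular matrix, while ITIH4 is secreted without bikunin and is cut by plasma kallikrein.

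Expression was measured as RPKM, reads scaled to transcript length and to the size of the library, which can be compared between genes because it is per length. The labels were first checked on the targeted genes. Foxa3 was at 0 to 0.0114 RPKM in the 8 FoxA3 null and triple null libraries and at 25.0 ± 5.39 in lox (SD, n = 3) and 31.1 ± 2.85 in Cre alfp (n = 4). Foxa2 averaged 0.366 ± 0.103 RPKM in the triple null (n = 4) and 13.7 ± 4.58 in FoxA3 null (n = 4). Foxa1 kept 38.6% ± 3.33 (SD, n = 4) of the FoxA3 null mean in the triple null and 18.4% ± 1.49 of the lox mean in Cre alfp (n = 4). Hnf4a went against its label: it averaged 122 ± 5.38 RPKM in the HNF4a control livers (SD, n = 2) and 524 ± 27.3 in the libraries labelled HNF4a null (n = 4). An RPKM over the whole gene cannot separate intact from deleted transcripts, so these 4 liver libraries are called the libraries labelled HNF4a null throughout. Relative depth, read from the smallest RPKM steps, was 2.01 to 4.07 times that of the shallowest library in hepatocytes and 1.0 to 1.1 times in liver.

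The members lie at 3 places in the genome. Itih4, Itih3 and Itih1 follow each other without another protein-coding gene between them on chromosome 14, Itih2 lies beside its paralog Itih5 on chromosome 2, and Ambp lies on chromosome 4 near the orosomucoid genes (gene order from RefSeq, GRCm38.p6). Promoter sequences from RefSeq matched 5 of 5 members. The 250 bases before the start of Ambp, Itih1 and Itih2 are shown because these 3 had the largest differences in the triple null. They read 5′ to 3′ along the gene, all from the minus strand of GRCm38.p6: chr4:63154173-63154422 for Ambp, chr14:30943290-30943539 for Itih1 and chr2:10130684-10130933 for Itih2. Capitals mark matches to the motifs named next.

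Ambp: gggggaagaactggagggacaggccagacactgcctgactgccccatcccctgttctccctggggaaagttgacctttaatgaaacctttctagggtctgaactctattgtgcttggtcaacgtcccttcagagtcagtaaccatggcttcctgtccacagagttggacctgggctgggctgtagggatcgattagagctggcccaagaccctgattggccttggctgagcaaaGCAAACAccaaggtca
Itih1: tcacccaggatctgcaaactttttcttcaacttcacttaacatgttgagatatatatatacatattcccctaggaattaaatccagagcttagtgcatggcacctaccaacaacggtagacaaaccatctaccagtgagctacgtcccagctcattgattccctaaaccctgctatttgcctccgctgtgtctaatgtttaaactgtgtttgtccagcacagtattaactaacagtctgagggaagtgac
Itih2: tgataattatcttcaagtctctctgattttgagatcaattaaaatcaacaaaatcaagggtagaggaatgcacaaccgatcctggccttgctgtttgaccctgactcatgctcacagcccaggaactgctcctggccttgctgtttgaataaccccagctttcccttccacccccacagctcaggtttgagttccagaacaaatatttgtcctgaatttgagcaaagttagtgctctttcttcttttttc

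Motifs were searched as exact letters on both strands, from 250 bases before to 50 after each start. The forkhead core variant TGTTTGC occurred in the Ambp window, as its reverse complement GCAAACA beginning 16 bases before the start, and in 5.07% of all 32851 promoter windows. The forkhead core TGTTTAC was in none of the 5 members' windows and in 3.65% of all. The HNF4 letters CAAAGTC were in none of the 5 and in 4.44% of all. TATAAA was found in the windows of Itih3, from position 4, and Itih4, in reverse 3 bases before the start, against 13.6% of all windows, and no searched motif was found in those of Itih1 and Itih2. A match is a description of letters, not a binding site, and a missing match says only that these letters are not in this window.

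In the triple null, the transcripts for bikunin and for heavy chains 1 and 2 fell steeply, and those for heavy chains 3 and 4 kept more of their level. Ambp, Itih1 and Itih2 were at 5.85% to 9.28% of their FoxA3 null means. Itih3 was at 46.1% ± 15.9 (SD, n = 4) and Itih4 at 60.2% ± 13.1. The comparison asks what deletion of FoxA1 and FoxA2 does to adult hepatocytes that already lack FoxA3. A gene was called when limma's moderated test on log2(RPKM + 1) gave an adjusted p under 0.05 with a difference of at least 1 on that scale, which understates changes of low genes. By that rule 4 of the 5 members were lower in the triple null and 0 higher (5 lower and 0 higher at an unadjusted p under 0.05), where 3.95% of the 11500 tested genes were called lower and 4.17% higher. The median of all tested genes was 0.045.

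Ambp, the source of bikunin, stood at 1865, 2162, 2059.6 and 2294 RPKM in FoxA3 null replicates 1 to 4 and at 78.1, 132, 156 and 124 in triple null replicates 1 to 4. Every triple null library was far below every control, and replicate 1 was the lowest. The log2 difference was -4.12 (SE 0.19, adjusted p = 1.14e-09 by limma), and 30 of the 11500 genes had a lower one.

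Itih1, whose product is a heavy chain of inter-alpha inhibitor, read 192, 184, 157 and 165 RPKM in the FoxA3 null controls and 13.8, 14.2, 19.5 and 17.2 in the triple null. The groups were well apart and each was narrow. Its log2 difference was -3.36 (SE 0.16, adjusted p = 1.6e-09 by limma).

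Itih2, which encodes the other heavy chain of inter-alpha inhibitor, read 285, 259, 235 and 281 RPKM in the FoxA3 null controls and 14.2, 13.9, 18.9 and 17.1 in the triple null. Again no library of one group came near the other. The log2 difference was -3.97 (SE 0.11, adjusted p = 3.76e-12 by limma), with 33 of 11500 genes lower still. In these 4 libraries Itih1 and Itih2, which lie on different chromosomes, settled at almost the same level: the ratio of Itih2 to Itih1 was 0.994 ± 0.0259 in the triple null against 1.52 ± 0.126 in FoxA3 null (SD, n = 4 each).

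Itih3, which encodes the heavy chain of pre-alpha inhibitor, was measured at 181, 256, 232 and 244 RPKM in the FoxA3 null controls and at 78.4, 92.9, 159 and 90.5 in the triple null. Triple null replicate 3, at 159 RPKM, was close to the lowest control, at 181. The log2 difference was -1.15 (SE 0.29, adjusted p = 0.00915 by limma).

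Itih4, the member that does not bind bikunin, was measured at 701, 1310.1, 1293 and 1187 RPKM in the FoxA3 null controls and at 547, 588, 876 and 692 in the triple null. FoxA3 null replicate 1 lay inside the triple null range, so the groups overlapped. Its log2 difference of -0.71 (SE 0.22, 95% interval -1.18 to -0.24) had an adjusted p of 0.0245 by limma but was smaller than the minimum of 1, so it was not called. The authors' deposited table lists -1.19 on the log2 scale for Itih4 for the same comparison (adjusted p = 7.66e-06 in that table), so by the thresholds used here that table has all 5 members lower where the fit here called 4. For the other members that table and the fit here differ by less, with -4.16 for Ambp, -3.51 for Itih1, -4.09 for Itih2 and -1.19 for Itih3. Triple null replicate 3 was the highest of its group for 5 of 5 members, and replicate 1 the lowest for 4.

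**Figure D1:**
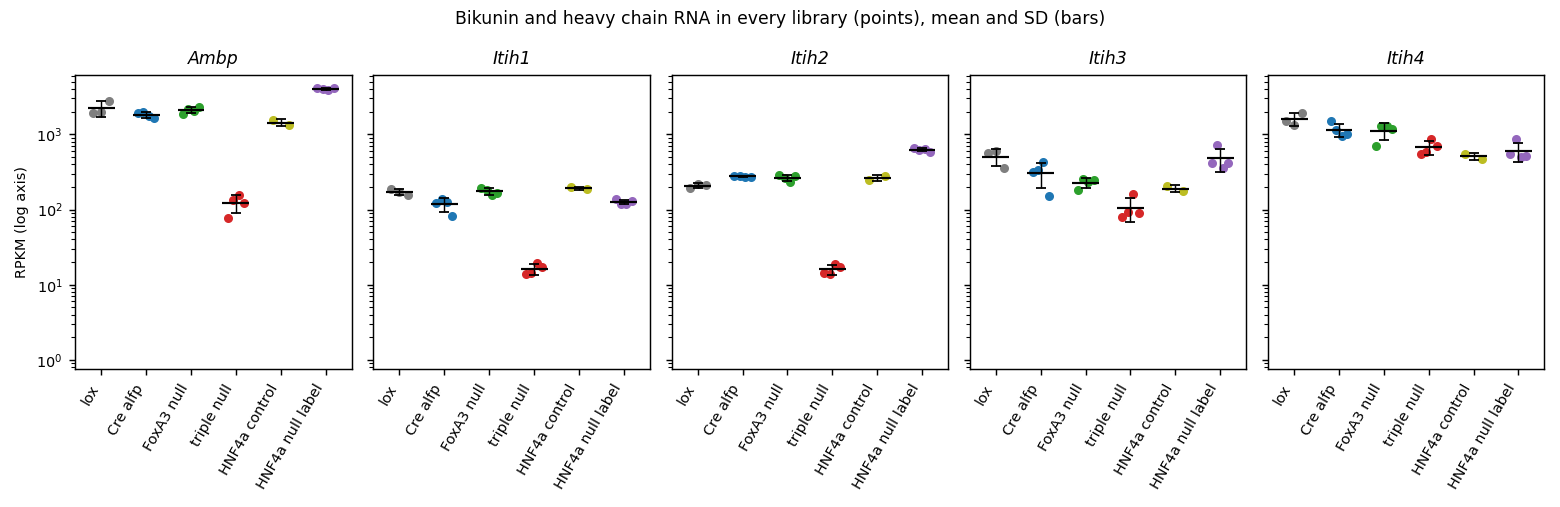
RPKM on a log axis for the 5 members in the 21 libraries (points), with the group mean (line) and SD (bars). Triple null points for Ambp, Itih1 and Itih2 lie at 78.1 to 156, 13.8 to 19.5 and 13.9 to 18.9 RPKM, far below every other group, whereas those for Itih4 overlap FoxA3 null.

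Markers of other cells also differed between these groups. The summed RPKM of 8 sinusoidal endothelial markers was 8.67 to 17.7 in the triple null and 27.3 to 44.1 in FoxA3 null, with 3 of 7 tested called lower; 4 of the 8 averaged under 1 RPKM in the triple null. Stellate and fibroblast markers had 2 of 3 tested called lower. Neutrophil and monocyte markers summed to 9.08 to 110.1 RPKM against 0.75 to 1.65, and both tested ones were called higher. Among the erythroid markers 3 of 4 tested were called higher and 1 lower. Their summed RPKM was nonetheless lower, at 7.38 to 28.4 in the triple null against 34.0 to 48.0 in FoxA3 null. None of the 3 cholangiocyte or 5 macrophage markers tested was called by limma, nor had any an unadjusted p under 0.05. Lymphocyte markers were too low to test. Hepatocyte markers remained by far the most abundant, at 12543 to 18094 RPKM in sum against 39821 to 47472, with 5 of 10 called lower. Their part in the members' differences was not tested, and in bulk RNA fewer cells of a type cannot be told apart from less RNA per cell.

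With FoxA3 in place, deletion of FoxA1 and FoxA2 left all 5 transcripts abundant. Comparing Cre alfp with lox, 0 of the 5 members were called by limma in either direction, where 1.1% of the 11500 genes were called lower and 1.29% higher; 3 of the 5 (Itih1, Itih2 and Itih3) had an unadjusted p under 0.05. Ambp was at 81.7% ± 7.43 of the lox mean (SD, n = 4), and the smallest share, that of Itih3, was 60.2% ± 22.5. Among markers of other cells, 1 of 3 cholangiocyte markers was called lower, and of 4 erythroid markers 1 was called higher and 1 lower; their part in the members' values was not tested.

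For Ambp the lox libraries read 1896, 1974 and 2815 RPKM and the Cre alfp libraries 1941, 1975, 1735 and 1629.6. The ranges overlapped, and lox replicate 3 stood above the rest. The log2 difference was -0.27 (SE 0.2, 95% interval -0.7 to 0.16, adjusted p = 0.534 by limma).

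For heavy chains 1 and 2, neither difference was called. Itih1 read 185, 171 and 155 RPKM in lox and 122, 139.8, 126 and 82.1 in Cre alfp, with a log2 difference of -0.55 (SE 0.17, adjusted p = 0.0781 by limma). Itih2 read 190.5, 219 and 215 RPKM in lox and 281, 278, 272 and 275 in Cre alfp, with a log2 difference of 0.41 (SE 0.12, adjusted p = 0.0566 by limma). For both genes the libraries of the groups did not overlap, Itih1 reading lower in Cre alfp and Itih2 higher; of all tested genes, 8.63% did not overlap on the lower side and 11.2% on the higher side. The ratio of Itih2 to Itih1 was 1.23 ± 0.187 in lox (SD, n = 3) and 2.45 ± 0.612 in Cre alfp (n = 4), a difference that was not tested.

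Itih3 read 560.3, 603 and 356 RPKM in lox and 312, 332, 425 and 151 in Cre alfp, and its groups overlapped (log2 difference -0.79, SE 0.32, adjusted p = 0.192 by limma). Itih4 read 1514, 1342 and 1939 RPKM in lox and 1484, 1158, 953 and 1008 in Cre alfp, where replicate 1 reached the lox range (-0.48, SE 0.24, adjusted p = 0.307). Cre alfp replicate 4 was the lowest of its group for 3 of the 5 members, among them Itih3 and Itih1.

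Whether the deletion acted differently without FoxA3 was tested as an interaction, the triple null difference minus the Cre alfp difference. Ambp (-3.85, SE 0.27, adjusted p = 5.54e-07), Itih1 (-2.81, SE 0.23, adjusted p = 2.85e-06) and Itih2 (-4.38, SE 0.16, adjusted p = 5.19e-10) were called lower by limma, 3 of 5 members where 3.54% of all tested genes were called lower. For Itih3 the interaction was -0.37 (SE 0.43, 95% interval -1.29 to 0.56) and for Itih4 -0.24 (SE 0.32, 95% interval -0.93 to 0.46), and neither was called. The intervals for Itih3 and Itih4 span 0 but still allow differences near 1, so equal responses are not shown. Of the hepatocyte markers, 4 of 10 were called lower in the same interaction. Among markers of other cells, 2 of 7 endothelial, 2 of 3 stellate and 1 of 4 erythroid ones were called lower, and both tested neutrophil and monocyte markers higher; all 7 endothelial markers were lower at an unadjusted p under 0.05. Their part in the members' interactions was not tested. FoxA3 status, the way Cre was delivered and the AAV all differ between the 2 arms and cannot be told apart.

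**Figure D2:**
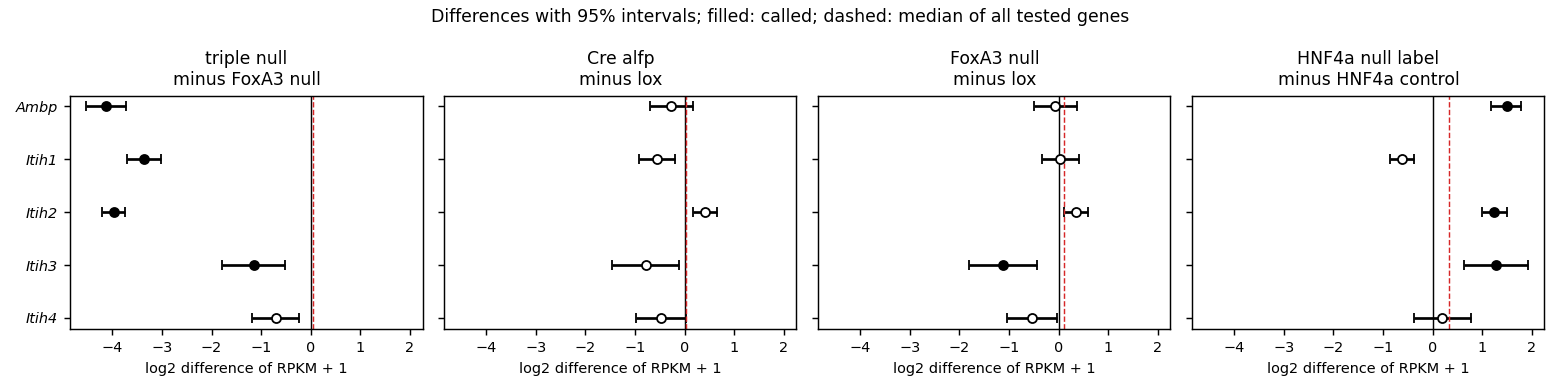
Log2 differences of RPKM + 1 with 95% intervals for the 5 members in 4 comparisons; filled points were called, and the dashed line is the median of all tested genes. Ambp, Itih1 and Itih2 lie between -4.12 and -3.36 in the triple null panel and between -0.55 and 0.41 in the Cre alfp panel; in liver Itih1, at -0.61, is the member below 0, and Itih4, at 0.19, also lies below the dashed line.

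Lox and Cre alfp served as further references for the triple null. These comparisons reuse libraries and cross a split in the matrix: for 1277 of 11500 genes (11.1%) the 7 libraries with FoxA3 did not overlap the 8 without it, and 0 of the 5 members were among them. The median of all genes was 0.132 against lox, 0.125 against Cre alfp and 0.103 for FoxA3 null minus lox. Against lox, 5 of 5 members were called lower by limma (5.81% of all genes), with differences relative to that median of -4.33 for Ambp, -3.46 for Itih1, -3.76 for Itih2, -2.41 for Itih3 and -1.38 for Itih4. Against Cre alfp, 4 of 5 were called lower (5.03% of all genes), at -4.05 for Ambp, -2.9 for Itih1, -4.16 for Itih2 and -1.61 for Itih3 relative to the median; Itih4, at -0.9, was not called. Other cells' markers differed here too: of 7 endothelial markers tested, 5 were called lower against lox and 6 against Cre alfp, and both tested neutrophil and monocyte markers were called higher in each. Of 4 erythroid markers, 3 were called higher and 1 lower against lox, and 1 higher and 1 lower against Cre alfp. Summed erythroid RPKM was lower in the triple null (7.38 to 28.4) than in lox (81.6 to 90.8), and its range overlapped that of Cre alfp (15.8 to 29.2). Against lox 1 of 3 cholangiocyte markers was called lower, and against Cre alfp 1 of 3 stellate markers. Their part in the members' differences was not tested.

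FoxA3 null was compared with lox to see the members without FoxA3 alone. Only Itih3 was called, 1 of 5 members lower where 3.56% of all genes were: it averaged 506 ± 132 RPKM in lox (SD, n = 3) and 228 ± 33.1 in FoxA3 null (n = 4), a log2 difference of -1.12 (SE 0.32, adjusted p = 0.0161 by limma; -1.22 relative to the median). Among markers of other cells, 1 of 3 cholangiocyte and 1 of 4 erythroid ones were called lower in the same comparison, and their part was not tested. The Itih3 call rested on the lox libraries: without lox replicate 1 the difference was -1.03 (adjusted p = 0.0622) and without lox replicate 2 it was -0.98 (adjusted p = 0.0718). Ambp (-0.07, SE 0.2) and Itih1 (0.03, SE 0.17) had 95% intervals of -0.5 to 0.36 and -0.33 to 0.4. For Itih2 the difference was 0.35 (SE 0.12, adjusted p = 0.0336 by limma), smaller than the minimum, and for Itih4 -0.53 (SE 0.24, adjusted p = 0.0913).

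These shifts changed the make-up of the heavy chain RNA. In FoxA3 null, Itih4 was 61.9% ± 7.05 of the summed heavy chain RPKM, Itih2 15.3% ± 3.96, Itih3 12.8% ± 0.508 and Itih1 10.1% ± 2.74 (SD, n = 4). In the triple null Itih4 was 83.2% ± 1.32, Itih3 12.7% ± 1.61, Itih1 2.01% ± 0.134 and Itih2 2.0% ± 0.178 (n = 4), while the sum was 813 ± 186 RPKM against 1790.4 ± 293. No triple null library overlapped a FoxA3 null library in the shares of Itih1, Itih2 or Itih4. Lox and Cre alfp had Itih4 shares of 64.0% ± 7.87 (n = 3) and 62.1% ± 6.36 (n = 4), and Itih2 shares of 8.41% ± 0.844 and 15.2% ± 2.23. Shares of one sum are tied to each other, so a higher share of Itih4 went with a lower level of Itih4 itself.

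The balance between bikunin RNA and that of its partner heavy chains differed as well. The ratio of Ambp RPKM to the summed RPKM of Itih1, Itih2 and Itih3 was 2.84, 3.09, 3.3 and 3.33 in FoxA3 null and 0.735, 1.09, 0.79 and 0.991 in the triple null. Ratios in lox ranged from 1.99 to 3.88 and in Cre alfp from 2.11 to 3.21, and in liver from 2.05 to 3.62, so every triple null library lay below every other library. Of the RNA for bikunin's partners, Itih3 was the largest remaining contributor in each triple null library.

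**Figure D3:**
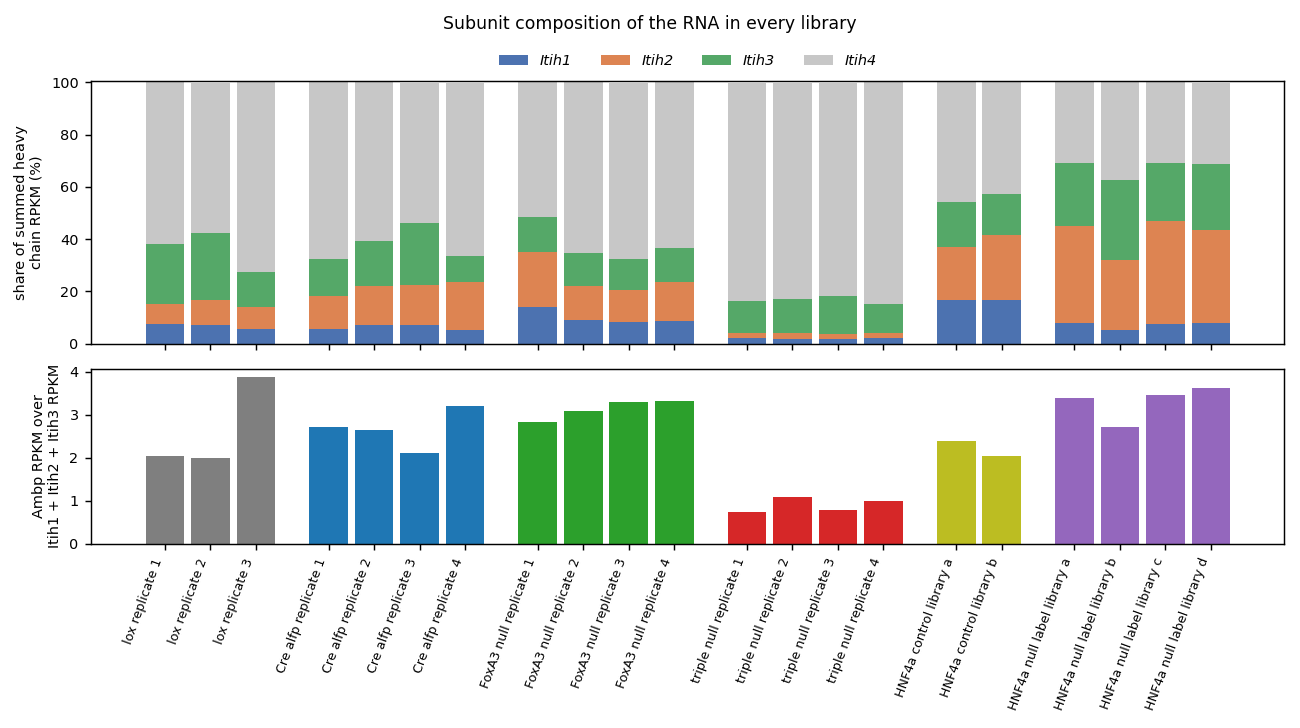
Share of the summed heavy chain RPKM for Itih1 to Itih4 in each library (stacked bars, %) and, underneath, Ambp RPKM divided by the sum of Itih1, Itih2 and Itih3. Itih4 makes up 81.6% to 84.7% in the triple null, and the ratio there is 0.735 to 1.09 against 1.99 to 3.88 in the other hepatocyte libraries.

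Neighbouring genes were measured to see whether the members moved with their surroundings. Of 24 neighbours, up to 4 protein-coding genes on each side, 18 were tested in the triple null comparison, and their median difference was 0.12 against 0.045 over all genes. Around the cluster of 3, Mustn1 beside Itih4 was at -0.03 (SE 0.25) and Nek4, a kinase gene beside Itih1, at 0.29 (SE 0.14). Neither was called. Both were low in FoxA3 null, at 1.12 ± 0.642 RPKM for Mustn1 and 2.23 ± 0.223 for Nek4 (SD, n = 4 each). At such levels log2(RPKM + 1) can show only a small fall, so a loss as steep as that of Itih1 could not appear. Within the cluster the difference went from -0.71 for Itih4 through -1.15 for Itih3 to -3.36 for Itih1. Itih5, a heavy chain gene expressed mainly outside hepatocytes, adjoins Itih2. It was at 1.36 ± 0.243 RPKM in the FoxA3 null controls and 1.16 ± 0.261 in the triple null (SD, n = 4 each). Its log2 difference was -0.13 (SE 0.12, adjusted p = 0.432 by limma), and at that level too only a small fall could show. Near Ambp, the collagen gene Col27a1 was called lower (-2.7, SE 0.3) and Orm3, an orosomucoid, higher (4.26, SE 0.21), while Orm1 was at 0.92 (SE 0.14) and not called. In Cre alfp against lox, where Ambp was not called (-0.27), Col27a1 was also called lower (-2.1, SE 0.33, adjusted p = 0.00163) and Orm3 higher (2.58, SE 0.23, adjusted p = 1.32e-05 by limma). In liver, where Ambp was called higher, they were called in the same directions as well, at -1.79 and 4.72 relative to the median. Orosomucoid genes are near-identical copies, so reads could be split between them and their single values are uncertain.

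**Figure D4:**
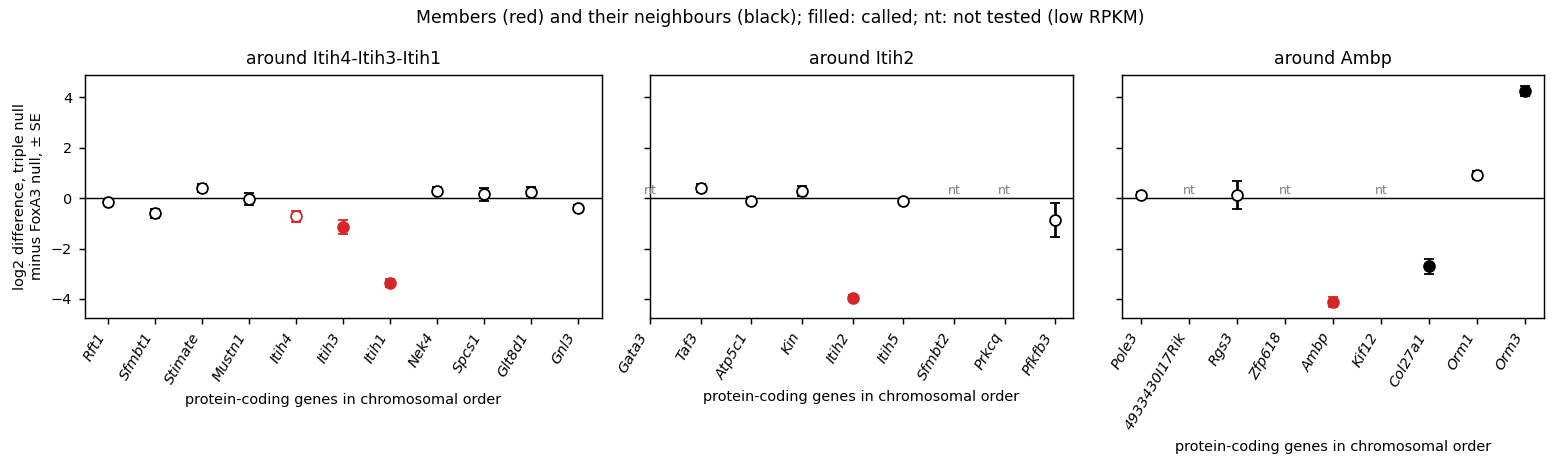
Log2 difference, triple null minus FoxA3 null, ± SE for the members (red) and their protein-coding neighbours (black) in chromosomal order at 3 loci; filled points were called and nt marks genes too low to test. Itih2 is at -3.97 between neighbours that were not called, Itih1 at -3.36 between Itih3 (called, -1.15) and Nek4 (not called), and Ambp at -4.12 lies near Col27a1 at -2.7 and Orm3 at 4.26. Low neighbours such as Mustn1, Nek4 and Itih5 can show only a small fall on this scale.

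Genes that act on the same proteins were described by list. For hyaluronan synthesis, breakdown and binding, 9 of 21 measured genes were tested in the triple null comparison. Habp2, a plasma protease that binds hyaluronan, was called lower by limma (-1.46, SE 0.15), 0 were called higher (1 at an unadjusted p under 0.05), and the median was -0.19. Tnfaip6 averaged 0.171 ± 0.124 RPKM in the FoxA3 null controls and 0.201 ± 0.257 in the triple null and was too low to test. For chondroitin sulfate synthesis, 17 of 28 were tested and the median was -0.18. Papss2, which makes the sulfate donor PAPS, was called higher (1.67, SE 0.26), as was the sulfotransferase gene Chst13 (1.03, SE 0.19), and Ugdh, which makes UDP-glucuronate, was called lower (-1.08, SE 0.26). In Cre alfp against lox the same list gave Papss2 higher (1.31, SE 0.28) and Ugdh lower (-1.24, SE 0.28), while the hyaluronan list gave 0 calls by limma and 3 genes at an unadjusted p under 0.05.

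Relatives of both Ambp products were described in the same way. Among lipocalins, 8 of 10 were tested in the triple null comparison, 3 were called higher and 0 lower (1 lower at an unadjusted p under 0.05), and the median was 0.8: Lcn2, an iron-siderophore binding protein, averaged 21.4 ± 12.7 RPKM in the FoxA3 null controls and 742 ± 201 in the triple null (SD, n = 4 each; log2 difference 5.21, SE 0.44, adjusted p = 8.28e-07 by limma), beside Orm3 and Orm2 (2.48, SE 0.48). For Kunitz-type inhibitors, 5 of 13 were tested, 0 were called by limma (1 at an unadjusted p under 0.05) and the median was -0.01. Of the proprotein convertases, which cut precursors in the secretory pathway, 7 of 9 were tested and 0 called by limma (4 lower at an unadjusted p under 0.05), with a median of -0.47. The list for receptors and uptake had 2 of 4 tested and 0 called by limma (1 lower at an unadjusted p under 0.05).

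Other liver transcription factors were also described as a list. Among the 20 tested, Nr5a2, a nuclear receptor gene, fell in the triple null (-1.0, SE 0.19, adjusted p = 0.00143 by limma), and the list's median was -0.17. Hnf4a was at 159 ± 36.0 RPKM in the FoxA3 null controls and 145 ± 34.2 in the triple null (SD, n = 4 each), and its groups overlapped.

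In the fit here, livers labelled HNF4a null carried more RNA for bikunin and for heavy chains 2 and 3 than their controls. Of these, only Ambp also passed the size minimum in the authors' deposited table and with libraries scaled to a common median. Itih1 values were lower, which did not pass the size minimum in the fit here but did in the authors' deposited table. These 6 libraries were tested in a fit of their own over 12434 genes, because the tissue is labelled liver and not hepatocytes. By limma 3 of 5 members were called higher, where 8.58% of all genes were called higher, and 0 lower, where 5.95% were; Itih1 was lower at an unadjusted p under 0.05. The median of all genes was 0.337, so each difference is also given relative to it. Hnf4a itself was higher in the libraries labelled HNF4a null, as given with the label check, so no direction here can be read as the effect of losing HNF4a.

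Ambp read 1549 and 1322 RPKM in the control livers and 4122, 3974, 3848 and 4103 in the libraries labelled HNF4a null. The latter are the 4 highest Ambp values of all 21 libraries. The log2 difference was 1.49 (SE 0.13, adjusted p = 0.000217 by limma), or 1.15 relative to the median.

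Itih2 read 246 and 281 RPKM in the controls and 656, 622, 634 and 584 in the libraries labelled HNF4a null. Its difference was 1.24 (SE 0.11, adjusted p = 0.000213 by limma), 0.9 relative to the median. When the libraries were scaled to a common median it was 0.93 and under the minimum.

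Itih1 read 199.6 and 187 RPKM in the controls and 137, 119, 120.1 and 130.1 in the libraries labelled HNF4a null. All 4 values were below both controls, opposite in direction to Itih2. How many of all genes separate in this way between these livers was not counted. The difference of -0.61 (SE 0.1, adjusted p = 0.00289 by limma; -0.95 relative to the median) was smaller than the minimum and was not called. The ratio of Itih2 to Itih1 was 1.37 ± 0.191 in the controls (SD, n = 2) and 4.95 ± 0.383 in the libraries labelled HNF4a null (n = 4).

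Itih3 read 204 and 176 RPKM in the controls and 419, 719, 361 and 419 in the libraries labelled HNF4a null, where library b stood apart. Its difference was 1.28 (SE 0.27, adjusted p = 0.00799 by limma; 0.94 relative to the median). Without control library b it was 1.17 (adjusted p = 0.0581), with the remaining control assumed to vary like the other group, and with a common median 0.97, so the call was lost both ways. Itih4 read 554 and 476 RPKM against 545, 864, 496 and 510, with overlap, and its log2(RPKM + 1) difference was 0.19 (SE 0.24), or -0.14 relative to the median. The authors' deposited table for the same livers lists 1.08 for Ambp, -1.09 (SE 0.11, adjusted p = 8.27e-23) for Itih1, 0.7 for Itih2, 0.86 for Itih3 and -0.2 (SE 0.2) for Itih4 on the log2 scale. By the same thresholds that table has Ambp higher and Itih1 lower, with Itih2 and Itih3 under the minimum. By share, Itih4 made up 44.2% ± 2.49 of heavy chain RPKM in the controls and 32.5% ± 3.13 in the libraries labelled HNF4a null, and Itih2 22.8% ± 3.29 and 34.8% ± 5.55 (SD, n = 2 and 4).

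Markers of bile duct cells differed strongly between these livers. The 8 cholangiocyte markers summed to 130.3 to 228 RPKM in the libraries labelled HNF4a null against 15.8 to 16.8 in controls, and 5 of 6 tested were called higher. Hepatocyte markers summed to 16393 to 18239 RPKM against 27117 to 27137, with 3 called higher and 4 lower. Both tested neutrophil and monocyte markers and 1 of 7 macrophage markers were called higher, 1 of 4 erythroid markers was called lower, and 0 of 8 endothelial, 8 stellate and 2 lymphocyte markers tested were called by limma (2, 5 and 1 of them higher at an unadjusted p under 0.05). Their part in the members' differences was not tested. Among the lists, the lipocalins Apom (-6.05, SE 0.38) and C8g (-5.04, SE 0.2) were called lower and Orm2 (2.02), Orm3 (5.06) and Lcn2 (2.82) higher. Among the other genes called, Tfpi2 (-3.97), Cebpa (-1.43) and Habp4 (-1.43) were lower and App (1.51), Habp2 (1.07), Ugdh (1.51), Tgm2 (2.4) and Lrp1 (1.33) higher, in log2 units not relative to the median.

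Across groups the order of the mean levels differed by member. Ambp ran from 4012 ± 127 RPKM in the libraries labelled HNF4a null through lox (2228 ± 509.8), FoxA3 null (2095 ± 181), Cre alfp (1820.2 ± 166) and control liver (1435 ± 161) to the triple null (123 ± 32.6); lox, FoxA3 null and Cre alfp overlapped. Itih1 ran from control liver (193 ± 8.89) through FoxA3 null (174 ± 16.2), lox (170.2 ± 15.4), the libraries labelled HNF4a null (127 ± 8.82) and Cre alfp (117 ± 24.8) to the triple null (16.2 ± 2.72); the first 3 overlapped in that order, as did the next pair. Itih2 ran from the libraries labelled HNF4a null (624 ± 30.3) through Cre alfp (276 ± 3.88), FoxA3 null (265 ± 22.7), control liver (264 ± 24.7) and lox (208 ± 15.4) to the triple null (16.0 ± 2.4), with overlap only among Cre alfp, FoxA3 null and control liver. For Itih3 the order was lox (506 ± 132), the libraries labelled HNF4a null (479.5 ± 162), Cre alfp (305 ± 114), FoxA3 null (228 ± 33.1), control liver (190.1 ± 20.1) and triple null (105 ± 36.4), and each overlapped the next except the last. For Itih4 it was lox (1598 ± 307), Cre alfp (1151 ± 238), FoxA3 null (1123 ± 286), triple null (676 ± 147), the libraries labelled HNF4a null (604 ± 175) and control liver (515 ± 55.2), and each overlapped the next. Errors are SDs, with 2 libraries for control liver, 3 for lox and 4 elsewhere, and hepatocyte and liver levels come from different tissues.

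The authors' deposited tables place the same genes in development, where hepatoblasts are the fetal progenitors of hepatocytes. Those tables do not say which libraries served as the adult reference, and no per-library values of the fetal or newborn samples were used here. For hepatoblasts relative to adult hepatocytes, log2 fold changes in the authors' deposited table are -4.06 for Ambp, -4.73 for Itih1, -5.39 for Itih3 and -4.52 for Itih4, but only -1.24 for Itih2. In newborn against adult, the authors' deposited table gives 0.18 (adjusted p = 0.465) for Ambp, 1.85 for Itih1, 2.75 for Itih2, 1.72 for Itih3 and 1.53 for Itih4. Itih2 thus had the smallest deficit in hepatoblasts and the largest excess in newborns among the 5.

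Set directly against hepatoblasts, triple null levels differed in direction from member to member. The authors' deposited table for triple null against hepatoblast gives -0.29 (adjusted p = 0.218) for Ambp, 1.08 for Itih1, -2.65 for Itih2, 2.92 for Itih3 and 3.42 for Itih4. By these values Itih2 RNA was lower in the triple null than in hepatoblasts and Itih1, Itih3 and Itih4 RNA higher. The developmental and triple null values may share adult libraries, so they are listed side by side and not correlated.

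**Figure D5:**
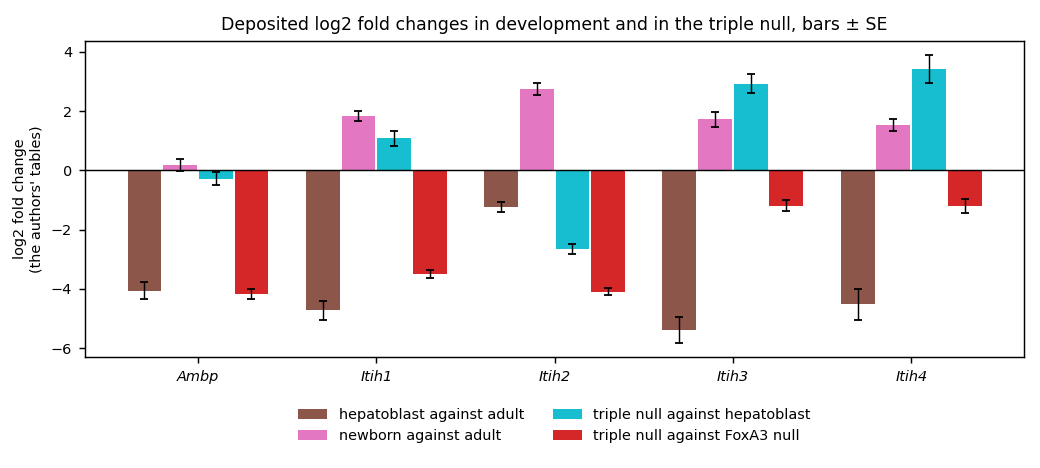
Log2 fold changes ± SE from the authors' deposited tables for hepatoblast against adult, newborn against adult, triple null against hepatoblast and triple null against FoxA3 null. Itih2 has the smallest hepatoblast deficit (-1.24) and is at -2.65 in triple null against hepatoblast, where Ambp is at -0.29 and the others are above 0.

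Members differed in which genes they resembled over the 21 libraries. Pearson's r of log2(RPKM + 1) was 0.982 between Ambp and Itih2, 0.917 between Ambp and Itih1, 0.898 between Itih1 and Itih2, and 0.121 between Itih2 and Itih4. Among 9077 other genes, Ces1c (0.985) and Serpind1 (0.968) were in the 3 most alike to Ambp, and both were also in the 3 most alike to Itih2 (0.994 and 0.976). Ces1c, a secreted carboxylesterase, averaged 1066 ± 22.0 RPKM in FoxA3 null, 17.1 ± 4.36 in the triple null and 3283 ± 321 in the libraries labelled HNF4a null (SD, n = 4 each). Itih1 instead was led by Serpina10 (0.986), Mug2 (0.977) and C8b (0.968), plasma protein genes. Itih3 was nearest to Gimap9 (0.892), Fgl1 (0.861) and Ppib (0.86), and Itih4 to Nit2 (0.894), Gm10039 (0.881) and Scrn2 (0.881). These r values describe libraries that share groups.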

How the data were processed

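RNA-seq values were the authors' deposited RPKM per gene and library. Per the submitters' processing notes, SAMtools, Cufflinks 2.2.1, DESeq2 and mm9 were used; the aligner is not given in the sources used here. In addition, the authors' deposited comparison tables give a log2 fold change and a p-value per gene. Of the matrix, 21 columns matched labelled RNA samples and 9 were not used; the 6 liver columns carry no replicate number and were lettered in column order. The peak list was not used here. Reads per library were not given, so depth was read as a ratio from low RPKM values.

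From these, log2(RPKM + 1) was computed and fitted with limma 3.58.1 under R 4.3.3, with contrasts and eBayes with trend. All 15 hepatocyte libraries shared 1 fit (genes at RPKM of at least 1 in 3 or more libraries) and the 6 liver libraries another (2 or more). P-values were adjusted by Benjamini-Hochberg over all tested genes. Genes were called at an adjusted p under 0.05 and an absolute log2 difference of at least 1. RPKM is relative to each library's total, so a few abundant transcripts can shift all others. The fits were tested on simulated data. Alternatives covered pseudocounts of 0.1 and 5, filters, median and quantile scaling, eBayes without trend, no minimum difference, fewer groups, a replicate block and leaving out each library.

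The members and gene lists were chosen with earlier results of these data known. Named were all members, the targeted genes, up to 4 called genes per list with the largest differences, called neighbours and flanking genes, and the 3 genes most alike to each member among those with a group mean of at least 5 RPKM. Some genes that this rule names are not reported here. Promoters came from RefSeq (GRCm38.p6), a build other than that of the RNA data. Python 3.11.15, pandas 2.3.3 and matplotlib 3.10.9 made the summaries.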

Additional observations from a re-analysis of the deposited data

Results flagged for a closer look

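By the interaction term of limma, the difference with FoxA1 and FoxA2 deletion was called lower in the arm without FoxA3 for 3 members. The values were -3.85 for Ambp, -2.81 for Itih1 and -4.38 for Itih2, where 3.54% of all tested genes were called lower. FoxA3 status, the way Cre was delivered and the AAV differ between the arms and cannot be told apart. Single libraries stood apart in groups of 4, where Dixon's test picks out about 1 group in 20 by chance. One library labelled HNF4a null, library b, had the highest Itih3 (719 RPKM) and Itih4 (864 RPKM) of its group by a wide gap. In the same library the share of Itih1 in heavy chain RPKM was lowest at 5.1% and that of Itih4 highest at 37.2%; these shares follow from the same RPKM values. FoxA3 null replicate 1 had an Itih1 share of 14.1%, against 8.19% to 9.14% in the other 3, and also the lowest Itih4 of its group at 701 RPKM.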

How the results depend on the processing

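Of 625 member differences computed under alternatives, 290 of them by leaving out 1 library, 610 kept their direction and side of the thresholds, 5 lost a call, 4 gained one and 6 changed sign, none of them called under either setting. In FoxA3 null against lox, Ambp (-0.07) became 0.06 under quantile normalization and ran from -0.17 to 0.11 with 1 library left out, the highest without lox replicate 3. Itih1 (0.03) became -0.09 there under median scaling and ran from -0.03 to 0.1, with -0.03 without lox replicate 3 and -0.01 without FoxA3 null replicate 1. Itih4 in liver (0.19) became -0.12 under median scaling. Without a minimum difference, Itih4 passed in triple null against FoxA3 null (-0.71) and against Cre alfp (-0.77), Itih2 in FoxA3 null against lox (0.35, 1 member higher) and Itih1 in liver (-0.61, 1 member lower). Median scaling took Itih2 (0.93) and Itih3 (0.97) under the minimum in liver, which left 1 member called higher. Leaving out 1 library gave Itih3 values of -1.36 to -0.98 in FoxA3 null against lox, with 0 to 1 members called lower, and of 1.07 to 1.4 in liver. In the order triple null against FoxA3 null, Cre alfp against lox, the interaction, triple null against lox and then against Cre alfp, FoxA3 null against lox and last liver, all genes called numbered 933, 274, 784, 1556, 1184, 827 and 1807. A pseudocount of 5 gave 505, 141, 441, 823, 598, 354 and 791, and no minimum difference gave 3413, 628, 1658, 4891, 4743, 4001 and 6569. A pseudocount of 0.1 gave 1303 for FoxA3 null against lox. Fitting only the groups compared gave 182 for Cre alfp against lox, and leaving out 1 library 177 to 284. The cause of these shifts was not tested.

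Replicate numbers did not pair the libraries: same-numbered deviations correlated at -0.126, -0.044, -0.36 and 0.018 between triple null and FoxA3 null, and at -0.033, 0.116 and -0.203 between Cre alfp and lox. With a replicate block the triple null differences from FoxA3 null were -4.12 for Ambp, -3.36 for Itih1, -3.97 for Itih2, -1.15 for Itih3 and -0.71 for Itih4, and the block changed no member's call in any hepatocyte comparison (919 genes called against 933 in the first). No block could be fitted in liver, where the columns carry no replicate number. Depth is unknown in reads, so no counting interval is given.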
